A study of Mus musculus with 10 samples.

Results

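The 10 neurofilament and neuronal cytoskeleton genes described here were followed in the prostates of 10 male TRAMP mice. They were the neurofilament genes Nefl, Nefm and Nefh, the related filament gene Ina, the microtubule genes Tubb3, Map2 and Stmn2, and Gap43, Uchl1 and Rtn1. They were chosen by symbol: for each, the probe set that the platform annotation gives this symbol alone was taken, and where there were several the one with the highest mean over all arrays. All 10 had such a probe set, out of 19938 genes with one, and all 10 passed the filter on low values, out of 14953 genes tested. The 5 nicotine mice drank nicotine, as its tartrate salt, at 250 µg/ml in tap water, and the 5 water mice drank tap water alone, both from an age of 8 to 9 weeks. All 10 mice carried the TRAMP transgene, in which the promoter of Pbsn, a secretory gene of the prostate epithelium, drives the T antigens of a virus, so that tumours start in that epithelium. Total RNA of each prostate was hybridised to a whole-transcript array, 1 array a mouse. Each value below is a probe set's brightness as the authors deposited it, taken as log2 from the range of the values. The number of arrays, 5 a group, limits the precision. The age at collection and the histology of each prostate were not used here.

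Neurofilaments are the intermediate filaments of axons. They are built from a light, a medium and a heavy chain, encoded by Nefl, Nefm and Nefh, with alpha-internexin (Ina) or peripherin (Prph) as further partners, and they set the calibre of the axon. Neurons also carry their own microtubule proteins, such as class III beta-tubulin (Tubb3), and proteins of the growing axon tip, such as Gap43. In the prostate these proteins are found in the nerve fibres of the stroma and in neuroendocrine cells, and neuroendocrine carcinomas, which arise in some TRAMP mice, can express them. The transcriptional repressor REST, encoded by Rest, holds many of these genes silent outside the nervous system.

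Tissue markers and the correlation between arrays set 2 prostates apart. Giving results without these 2 was chosen after the data were seen. Nicotine mice 3 and 1 had a median correlation with the other arrays of 0.654 and 0.880, against 0.983 to 0.988 for the other 8 mice. Over 13 measured neuroendocrine markers the mean was 9.70 in nicotine mouse 3 and 9.64 in nicotine mouse 1, against 7.02 to 7.45 in the 5 water mice. Over 8 markers of the prostate luminal epithelium, the defining cells of the labelled tissue, it was 7.35 in nicotine mouse 3 and 10.99 in nicotine mouse 1, against 11.61 to 11.88 in water mice, and Pbsn itself was 5.08 in nicotine mouse 3 and 9.17 in nicotine mouse 1, against 10.95 to 11.54. Skeletal muscle markers averaged 10.28 in nicotine mouse 1, against 7.59 to 7.73 in water mice, and those of smooth muscle were at 8.21 in nicotine mouse 3 and 10.08 in nicotine mouse 1, against 10.72 to 10.96. Fibroblast markers were lower in all 5 nicotine mice, with means of 9.53, 9.30, 8.57, 9.23 and 9.49 in nicotine mice 1 to 5, against 9.83 to 10.24 in water mice. The part of these cells in the member values was not tested. The results are therefore given with and without nicotine mice 1 and 3. In whole tissue, a change in the number of cells of a type and a change in RNA per cell cannot be told apart.

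The question of the comparison was whether the genes differ with nicotine. All 10 had a positive difference, nicotine minus water, but no member passed: limma gave 0 of the 10 an adjusted p under 0.05, as it did for every gene tested (0.0% called), and the members' adjusted p ran from 0.458 to 0.603. An unadjusted p under 0.05 was reached by 0 members, against 10.1% of all genes (1514 genes) in either direction and 4.28% higher in nicotine mice. With arrays weighted by their fit, limma called 0 members, against 7.33% of all genes in either direction and 2.84% higher. The share of positive differences over all genes was 50.7%. A difference of at least 0.5 log2 units was seen in 9 members, all but Nefh, and in 5.94% of genes. The median difference was 0.83 log2 units over the 10 members and 0.0039 over all genes tested. The groups overlapped in every member, while 2.02% of genes tested lay higher, and 2.88% lower, in all nicotine mice than in any water mouse. Nicotine mouse 3 was above all 5 water mice in 10 members, where 38.0% of genes were, and nicotine mouse 1 in 8, where 34.1% were; both were so in 8 members and in 23.3% of genes. Nicotine mouse 3 was the highest of the 10 mice in 9 members, where 30.2% of genes were. Nefm is in each of these counts of high values, but it passed the filter only through nicotine mice 1 and 3. Its place in them was therefore partly set by the filter. The median SD over members was 1.38 in the nicotine group and 0.19 in the water group, and over all genes it was 0.26 and 0.097. Without nicotine mice 1 and 3, the median difference over members was 0.10, with 8 of 10 positive, where 53.5% of all genes were.

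**Figure D1:**
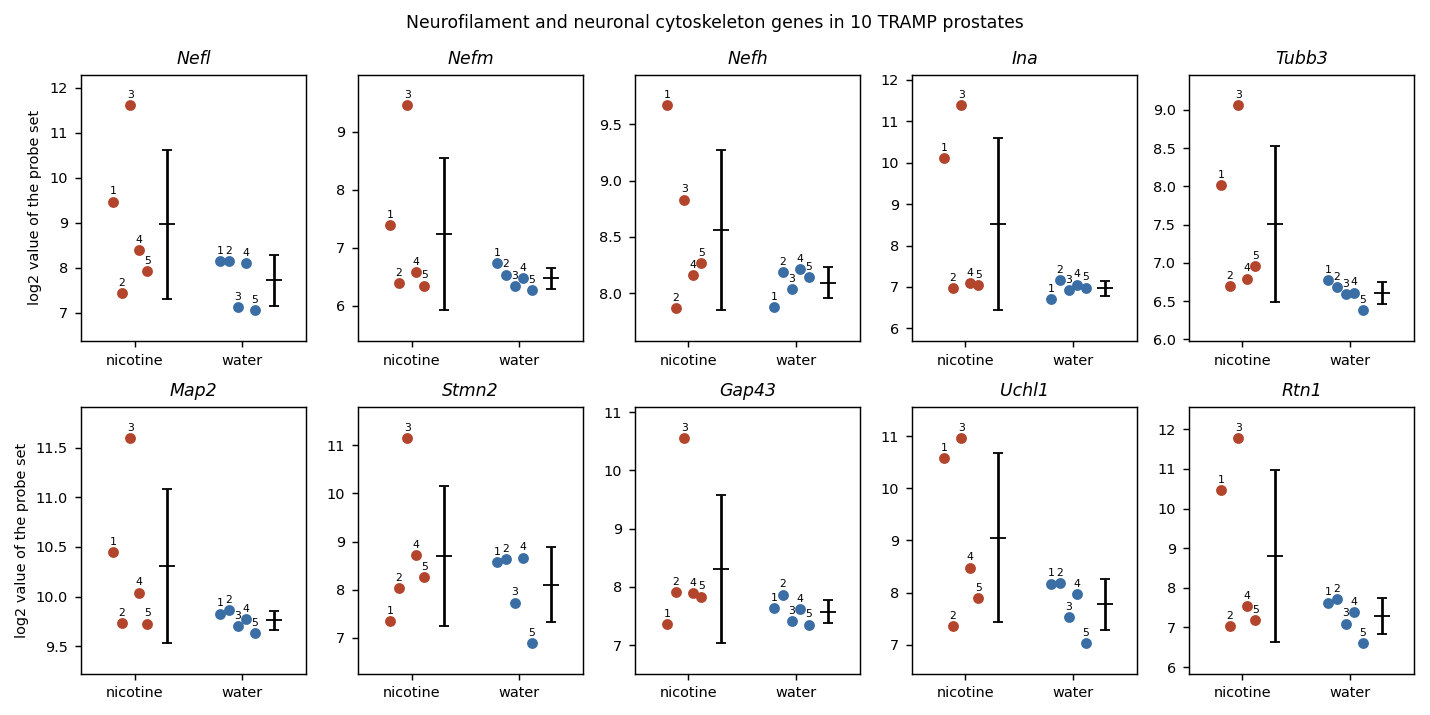
Log2 value (y axis) of each of the 10 members in each mouse, nicotine left and water right, with the mouse number above each point; the bar to the right of each group is the mean ± SD (n = 5), and each panel has its own scale. Nicotine mouse 3 is above all 5 water mice in all 10 panels and nicotine mouse 1 in 8, the exceptions being Stmn2 and Gap43.

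The neurofilament chains were described first. Nefl (probe set 10416175), the light chain on which the filament is assembled, measured 9.47, 7.43, 11.61, 8.40 and 7.92 in nicotine mice 1 to 5, against 8.15, 8.16, 7.14, 8.10 and 7.06 in water mice 1 to 5. Nicotine mice 3, 1 and 4 were above every water mouse and nicotine mouse 2 was within the water range, so the groups overlapped. The difference was 1.25 ± 0.71 log2 units (SE, 2.38-fold, adjusted p = 0.458 by limma, unadjusted exact permutation p = 0.111). Leaving out nicotine mouse 3 brought it to 0.59, and leaving out both nicotine mice 1 and 3 to 0.20 ± 0.31 (SE). Nefl also varied among the other mice, with an SD of 0.57 in water mice.

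Nefm (probe set 10421100) encodes the medium chain and lies next to Nefl, with 0 protein-coding genes between them. It measured 7.39, 6.40, 9.46, 6.59 and 6.35 in nicotine mice 1 to 5, against 6.74, 6.54, 6.35, 6.49 and 6.28 in water mice 1 to 5. Only nicotine mice 3 and 1 were above the water range. The mean of the water mice, 6.48, was under the filter level of 6.55, so Nefm entered the test through these 2 mice alone. The difference was 0.76 ± 0.54 (SE, adjusted p = 0.476 by limma), 0.20 without nicotine mouse 3 and -0.033 without nicotine mice 1 and 3.

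Nefh (probe set 10383920), the heavy chain, whose long phosphorylated tail reaches out from the filament, had another order. It measured 9.67, 7.87, 8.83, 8.16 and 8.27 in nicotine mice 1 to 5, against 7.88, 8.19, 8.04, 8.22 and 8.15 in water mice 1 to 5. It was the member in which nicotine mouse 1, not nicotine mouse 3, was highest of the 10 mice. The difference was 0.47 ± 0.30 (SE, adjusted p = 0.463 by limma), 0.19 without nicotine mouse 1, and 0.0085 without nicotine mice 1 and 3. Relative to the water mean, nicotine mouse 3 was higher by 3.89 in Nefl, 2.98 in Nefm and 0.74 in Nefh, and nicotine mouse 1 by 1.76, 0.91 and 1.58.

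Ina (probe set 10463732), the filament protein of developing and central neurons, had the largest group difference of the 10. It measured 10.11, 6.98, 11.39, 7.09 and 7.04 in nicotine mice 1 to 5, against 6.70, 7.17, 6.92, 7.06 and 6.98 in water mice 1 to 5. Nicotine mice 3 and 1 stood 4.42 and 3.15 log2 units above the water mean, or 21.4-fold and 8.86-fold, and the other 3 nicotine mice lay inside the water range. The difference was 1.56 ± 0.85 (SE, adjusted p = 0.458 by limma), 0.84 without nicotine mouse 3 and 0.07 ± 0.09 without nicotine mice 1 and 3. A second probe set of Ina, 10463737, which was not used for the test, read 8.38 and 10.24 in nicotine mice 1 and 3, against 5.00 to 5.61 in water mice.

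The microtubule genes followed. Tubb3 (probe set 10576332), the beta-tubulin used as a general marker of neurons, measured 8.02, 6.70, 9.06, 6.79 and 6.95 in nicotine mice 1 to 5, against 6.77, 6.69, 6.59, 6.61 and 6.38 in water mice 1 to 5. All nicotine mice but mouse 2 were above every water mouse. The difference was 0.90 ± 0.42 (SE, adjusted p = 0.458 by limma), with an unadjusted exact two-sided permutation p of 0.0159, where 0.00794 is the smallest that all arrangements of 5 against 5 can give. Without nicotine mouse 3 it was 0.51, and without nicotine mice 1 and 3 it was 0.21 ± 0.09 (SE, adjusted p = 0.323 by limma, unadjusted exact permutation p = 0.0714). Of the 10 members, Tubb3 and Gap43 had an unadjusted limma p under 0.05 in that smaller set, where 14.7% of all genes did, so the 2 of 10 are close to the background. Over 7 proliferation markers the mean was 11.27 in nicotine mouse 3, 10.24 in nicotine mouse 1 and 9.37 to 9.51 in the other 3 nicotine mice, against 8.95 to 9.27 in water mice, and their part in the difference was not tested.

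Map2 (probe set 10347036), a protein that bundles microtubules in dendrites, had an SD of 0.09 in water mice. It measured 10.45, 9.73, 11.60, 10.04 and 9.73 in nicotine mice 1 to 5, against 9.83, 9.87, 9.71, 9.77 and 9.63 in water mice 1 to 5. Nicotine mice 3, 1 and 4 were above the water range. The difference was 0.55 ± 0.32 (SE, adjusted p = 0.458 by limma), 0.23 without nicotine mouse 3 and 0.07 ± 0.08 without nicotine mice 1 and 3.

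Stmn2 (probe set 10490818), a stathmin that destabilises microtubules in growing axons, was not high in nicotine mouse 1. It measured 7.36, 8.03, 11.15, 8.72 and 8.26 in nicotine mice 1 to 5, against 8.57, 8.64, 7.73, 8.67 and 6.89 in water mice 1 to 5. Nicotine mouse 3 was 3.05 log2 units above the water mean, or 8.28-fold, while nicotine mouse 1 deviated by -0.75, within the water range, so the groups overlapped. The difference was 0.60 ± 0.67 (SE, adjusted p = 0.603 by limma), and it was -0.0097 without nicotine mouse 3, so its direction rested on that mouse. It was 0.94 without nicotine mouse 1, 0.30 without water mouse 5 and 0.24 ± 0.38 without nicotine mice 1 and 3.

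Gap43 (probe set 10439514), a membrane protein of the growth cone, did the same. It measured 7.36, 7.91, 10.56, 7.90 and 7.83 in nicotine mice 1 to 5, against 7.63, 7.87, 7.41, 7.61 and 7.35 in water mice 1 to 5. Nicotine mice 3, 2 and 4 were above every water mouse, nicotine mouse 3 by far the most at 7.90-fold above the water mean, and nicotine mouse 1 was the lowest of the nicotine group and level with the lowest water mouse. The difference was 0.74 ± 0.53 (SE, adjusted p = 0.476 by limma), 0.17 without nicotine mouse 3, and 0.31 ± 0.10 without nicotine mice 1 and 3 (SE, unadjusted limma p = 0.0144, adjusted p = 0.213, unadjusted exact permutation p = 0.0714).

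Uchl1 and Rtn1 are abundant neuronal proteins that also mark neuroendocrine cells. Uchl1 (probe set 10522208), a ubiquitin hydrolase also known as PGP9.5 and used to stain nerve fibres, measured 10.58, 7.35, 10.96, 8.48 and 7.89 in nicotine mice 1 to 5, against 8.17, 8.18, 7.53, 7.97 and 7.03 in water mice 1 to 5. Nicotine mice 1 and 3 were nearly level, 2.80 and 3.19 log2 units above the water mean, nicotine mouse 4 was also above every water mouse, and nicotine mice 2 and 5 were within the water range. The difference was 1.27 ± 0.69 (SE, adjusted p = 0.458 by limma), 0.80 without nicotine mouse 3 and 0.13 ± 0.29 without nicotine mice 1 and 3.

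Rtn1 (probe set 10400926), a reticulon that shapes the endoplasmic reticulum of neuroendocrine cells, had the widest range of the 10. It measured 10.46, 7.04, 11.78, 7.53 and 7.18 in nicotine mice 1 to 5, against 7.62, 7.71, 7.10, 7.39 and 6.61 in water mice 1 to 5. Nicotine mice 3 and 1 were 22.5-fold and 9.02-fold above the water mean, and the other 3 were inside the water range. The difference was 1.51 ± 0.90 (SE, adjusted p = 0.458 by limma), 0.77 without nicotine mouse 3 and -0.035 ± 0.22 without nicotine mice 1 and 3.

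**Figure D2:**
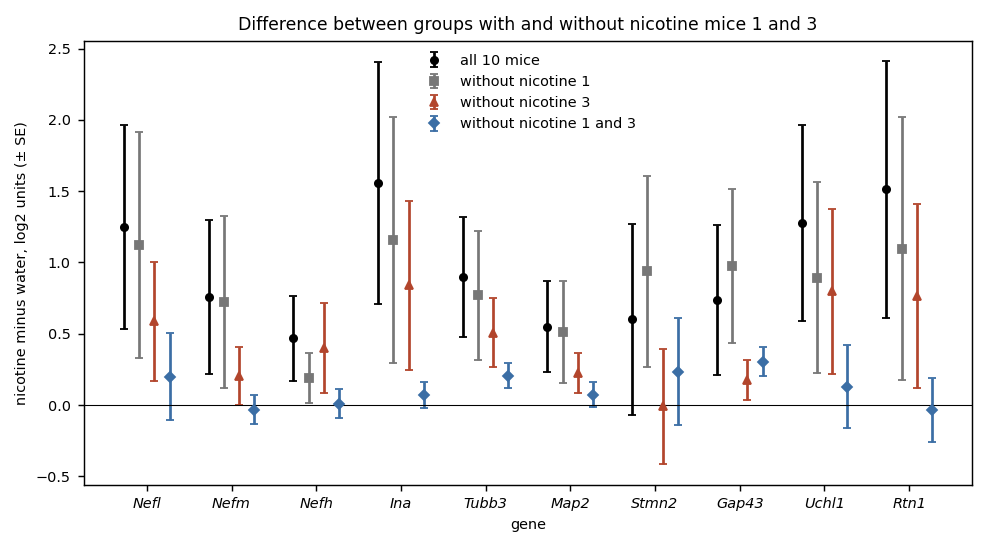
Difference, nicotine minus water, in log2 units (y axis) for each member, with its SE from limma, over all 10 mice and without nicotine mouse 1, nicotine mouse 3 or both. Without both, the estimates lie between -0.035 and 0.31.

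The 2 prostates with high values did not share 1 profile. In 5 members, Nefl, Ina, Tubb3, Uchl1 and Rtn1, both nicotine mice 1 and 3 were at least 1 log2 unit above the water mean, as in 3.64% of all genes tested. In 2 members, Stmn2 and Gap43, nicotine mouse 3 was at least 1 log2 unit above and nicotine mouse 1 below the water mean, as in 1.31% of all genes. Nicotine mouse 3 minus nicotine mouse 1 was 3.79 in Stmn2, 3.20 in Gap43, 2.14 in Nefl and 2.07 in Nefm, then 1.32 in Rtn1, 1.27 in Ina, 1.15 in Map2, 1.04 in Tubb3, 0.39 in Uchl1 and -0.84 in Nefh. These are differences between single mice, with no replicate and no test. The mean over 13 neuroendocrine markers was 9.70 in nicotine mouse 3 and 9.64 in nicotine mouse 1, but single markers differed. In 9 of the 13, both mice were at least 1 log2 unit above the water mean. Chga was 11.31 in nicotine mouse 3 and 11.74 in nicotine mouse 1, and Scg2 was 8.55 and 6.77. In the same order Pcsk1 was 6.20 and 11.11 and Foxa2 was 7.54 and 9.69, both named after their values were seen.

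**Figure D3:**
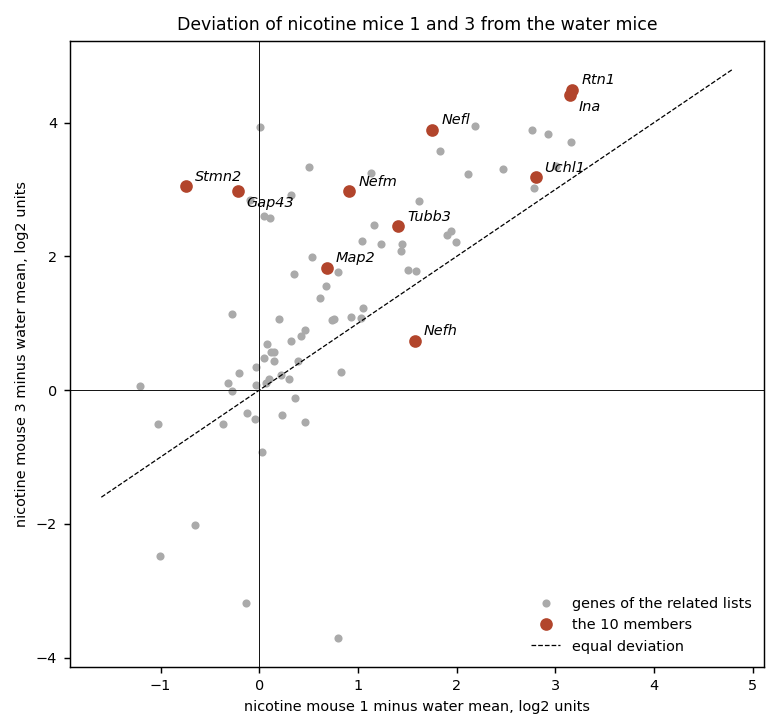
Deviation from the water mean, in log2 units, of nicotine mouse 1 (x axis) and nicotine mouse 3 (y axis) for the 10 members and for the 71 measured genes of the related lists; the dashed line marks equal deviation. Stmn2 and Gap43 lie left of 0 on the x axis at 3.05 and 2.98 on the y axis, and Nefh is the member below the line.

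Promoter sequences are shown for the 4 members that were at least 1 log2 unit above the water mean in both of these mice and had an entry in the RefSeq promoter table (build GRCm38.p6), since members that are high together can be compared at the letter level. The table held 5 of the 10 members, Map2 being the other. Each line gives the 250 bases before the start, 5′ to 3′ on the strand of the gene, with matches to GGACAG and CAGCACC, which are short parts of the REST motif, and to the E-box CAGCTG in capitals, on either strand. Ina is at chr19:47014431-47014680 on the plus strand, Tubb3 at chr8:123411303-123411552 on the plus strand, Uchl1 at chr5:66675871-66676120 on the plus strand, and Rtn1, for which the most CpG-rich of 3 starts is shown, at chr12:72236728-72236977 on the minus strand.
Ina: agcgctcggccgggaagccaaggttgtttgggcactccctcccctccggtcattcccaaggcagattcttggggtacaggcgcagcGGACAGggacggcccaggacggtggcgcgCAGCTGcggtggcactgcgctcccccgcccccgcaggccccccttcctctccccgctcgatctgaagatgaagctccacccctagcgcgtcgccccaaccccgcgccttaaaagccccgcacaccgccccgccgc
Tubb3: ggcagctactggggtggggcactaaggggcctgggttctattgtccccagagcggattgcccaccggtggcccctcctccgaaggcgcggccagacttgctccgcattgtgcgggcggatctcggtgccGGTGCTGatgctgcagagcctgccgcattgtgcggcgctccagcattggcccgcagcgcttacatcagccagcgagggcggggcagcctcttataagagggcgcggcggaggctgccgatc
Uchl1: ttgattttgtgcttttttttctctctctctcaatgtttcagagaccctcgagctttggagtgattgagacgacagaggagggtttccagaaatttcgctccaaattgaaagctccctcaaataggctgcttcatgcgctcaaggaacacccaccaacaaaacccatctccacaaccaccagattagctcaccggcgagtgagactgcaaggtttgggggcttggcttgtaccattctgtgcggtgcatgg
Rtn1: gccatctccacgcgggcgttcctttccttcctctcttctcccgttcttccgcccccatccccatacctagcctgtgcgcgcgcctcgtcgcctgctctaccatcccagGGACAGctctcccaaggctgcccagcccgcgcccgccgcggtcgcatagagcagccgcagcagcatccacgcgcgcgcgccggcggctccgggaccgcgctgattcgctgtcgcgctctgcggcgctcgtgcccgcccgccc

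Ina held GGACAG 164 bases before the start and CAGCTG 135 bases before it, Rtn1 held GGACAG at 142 bases, and Tubb3 held CAGCACC at 121 bases, on the opposite strand as GGTGCTG. Uchl1 held none of the 3 in this window. Of the 7 starts of the 5 members in the table, 4 held GGACAG, 1 held CAGCACC and 1 held CAGCTG. Over all 32851 promoters the shares were 18.7%, 5.73% and 13.0%. Rtn1 gave 3 of the 7 starts, so the starts are not independent. By gene, 3 of the 5 members held GGACAG, and no test was made. The 3 motifs do not overlap each other in these sequences. The windows of Ina, Tubb3 and Uchl1 held 25, 21 and 7 CpG dinucleotides, against a median of 6 over all promoters. The Rtn1 window shown was chosen for its 35, and the other 2 starts of Rtn1 held 8 and 3. A match of so few letters describes the sequence and does not show a bound site.

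REST itself was measured. Rest was 8.44 in nicotine mouse 1, 6.98 in nicotine mouse 3 and 9.43 to 9.52 in the other 3 nicotine mice, against 9.28 to 9.70 in water mice. Srrm4, a splicing factor that can switch REST to an inactive form in neurons, was 7.76 in nicotine mouse 1 and 8.49 in nicotine mouse 3, against 6.14 to 6.55 in water mice. Rcor2, a REST partner, was 8.49 and 9.14 in these 2 mice, against 6.97 to 7.12. The partner Rcor1, named after its values were seen, deviated from the water mean by 0.30 and 0.16 in these 2 mice. The group differences, -0.68 ± 0.45 (SE) for Rest and 0.81 ± 0.39 for Srrm4, did not pass by limma (adjusted p = 0.469 and 0.458). The 2 mice with the lowest Rest values were both above every water mouse in 8 of the 10 members, as in 23.3% of all genes tested. Nefm is among these 8, and it entered the test through the same 2 mice. Nicotine mice 1 and 3 also had the lowest means of the luminal and smooth muscle markers. The share of each cell type in these values was not measured, and a part of REST in the member values was not tested.

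**Figure D4:**
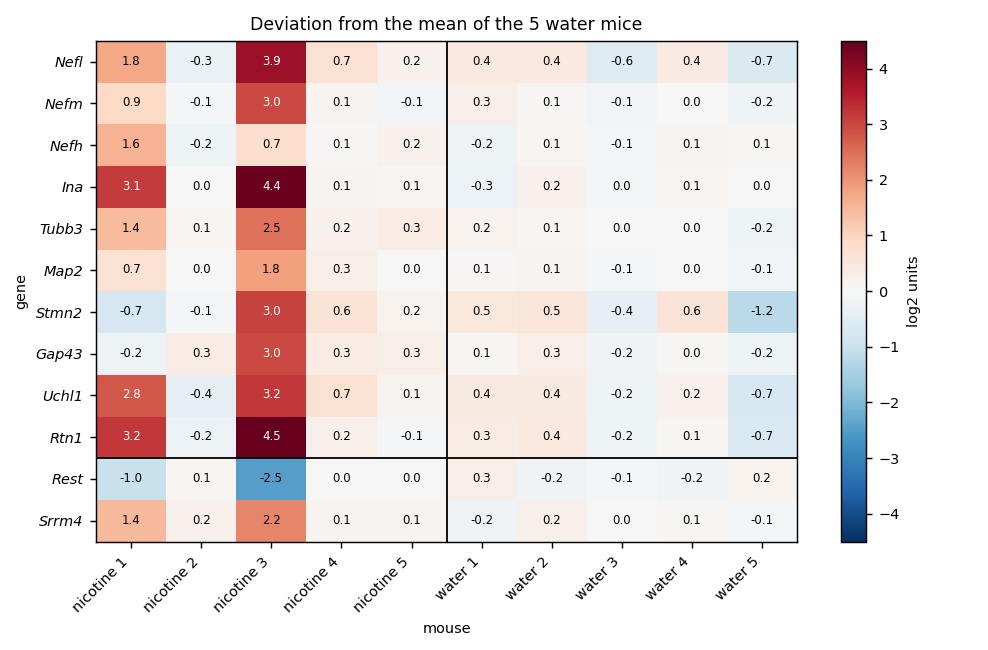
Deviation of each mouse from the mean of the 5 water mice, in log2 units, for the 10 members and, under the line, Rest and Srrm4; nicotine mice are on the left and water mice on the right. Red cells are above and blue cells below the water mean, and Rest is at -1.0 and -2.5 in nicotine mice 1 and 3.

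Other genes of the same pathway came from 11 lists of relatives and partners, of which 71 of 75 genes were measured and 69 tested. By limma 0 of the 69 passed the adjusted threshold in either direction, 54 were positive, where 50.7% of all genes were, and 7 higher and 1 lower had an unadjusted p under 0.05. The 8 of 69 are near the 10.1% of all genes with such a p in either direction, and 4.28% of all genes had one higher in nicotine mice. The counts of positive genes below are also to be read against 50.7%. In 22 of the 69 both nicotine mice 1 and 3 were at least 1 log2 unit above the water mean, where 3.64% of all genes were. Among the other filament proteins, peripherin (Prph), the filament of peripheral neurons, was 8.68 and 10.06 in nicotine mice 1 and 3, against 7.85 to 8.75 in water mice, so that nicotine mouse 1 was inside the water range. The muscle filament genes Des and Synm were 7.18 and 7.25 in nicotine mouse 3 and 11.69 and 8.60 in nicotine mouse 1, against 10.63 to 11.21 and 9.11 to 9.44 in water mice. Vim, the filament of mesenchymal cells, differed by -0.33 ± 0.12 (SE) and Nes, that of progenitor cells, by 0.29 ± 0.12, with unadjusted limma p of 0.0247 and 0.0433 and adjusted p of 0.458 for each.

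Of 10 tubulins tested, 9 were positive, and Tuba1a and Tubb4a, which are abundant in neurons, were high in both prostates. Tuba1a was 12.44 and 13.28 in nicotine mice 1 and 3, against 9.69 to 10.21 in water mice, and Tubb4a was 9.76 and 10.01, against 6.65 to 7.21. Tuba4a was 8.10 in nicotine mouse 3 and 11.15 in nicotine mouse 1, against 11.17 to 11.45. The widely used Tubb5 and Tubb6 differed by 0.47 ± 0.18 and 0.33 ± 0.12 (SE), with unadjusted limma p of 0.0244 and 0.0203 and an adjusted p of 0.458 for each. All 3 other stathmins were positive. Stmn3 was 10.45 and 12.20 in nicotine mice 1 and 3, against 7.46 to 8.85 in water mice, Stmn1, which is common in dividing cells, was 13.03 and 13.32, against 11.40 to 11.78, and Stmn4 was 9.64 in nicotine mouse 3 alone, with 7.18 in nicotine mouse 1, against 6.89 to 7.26.

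Microtubule-associated and collapsin response genes, which act in axon guidance, were positive in 11 of 13. Dpysl5 and Crmp1 were 10.02 and 9.40 in nicotine mouse 1 and 10.91 and 10.53 in nicotine mouse 3, against 6.81 to 7.55 and 6.46 to 6.89 in water mice. Doublecortin (Dcx), the microtubule protein of migrating young neurons, was 9.49 in nicotine mouse 3 and 5.57 in nicotine mouse 1, against 5.42 to 5.78 in water mice, and its mean was too low for the test. Dclk1 and Tubb2a, the 2 tested relatives in which nicotine mouse 3 was at least 1 log2 unit above and nicotine mouse 1 below the water mean, were named after their values were seen. Dclk1, a kinase related to doublecortin, was 9.63 and 6.69 in nicotine mice 3 and 1, against 6.69 to 6.91, and Tubb2a was 10.56 and 9.14, against 9.29 to 9.58.

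Among the axonal transport genes, 7 of 9 tested were positive, and nicotine mice 1 and 3 were both above every water mouse in 6. Both were so in 23.3% of all genes tested. The count of 4 spectrin, ankyrin and linker genes below is to be read against that share too. The kinesins Kif1a, Kif5c and Kif5a were 10.48, 8.96 and 8.34 in nicotine mouse 1 and 11.02, 10.71 and 10.45 in nicotine mouse 3, against at most 7.59, 7.43 and 7.52 in water mice. Klc1, a kinesin light chain, was 11.33 and 11.53 in these 2 mice, against 9.69 to 9.88. Kif5b deviated from the water mean by -0.04 and -0.43 in nicotine mice 1 and 3, and Kif21a by -1.20 and 0.07. Of 8 spectrin, ankyrin and linker genes 6 were positive and 4 were above every water mouse in both, with Nfasc, an adhesion protein of the axon initial segment, at 8.52 and 8.75 against 6.40 to 6.68, Ank2 at 8.29 and 9.05 against 7.48 to 7.94, and Sptan1 at 11.20 and 11.52 against 10.39 to 10.57. Ank3 deviated by -0.32 and 0.11, Sptbn1 by 0.36 and -0.12 and Plec by 0.47 and -0.47 in these 2 mice. These 5 genes, and Pcp4, Nrgn and Pmp22 in the paragraphs that follow, were named after their values were seen. Mapk10 was 8.43 and 9.63 against 6.42 to 7.36, and the Cdk5 activators Cdk5r1 and Cdk5r2 were 7.98 and 8.03, and 8.85 and 8.29, against 6.74 to 7.22 and 7.88 to 8.15.

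Families of the remaining members split. Beside Gap43, the membrane proteins Basp1, Marcks and Marcksl1 were 11.32, 10.51 and 10.10 in nicotine mouse 1 and 11.76, 11.80 and 11.22 in nicotine mouse 3, against at most 9.56, 9.68 and 8.17 in water mice. The other 2 genes of that list, Pcp4 and Nrgn, deviated from the water mean by -1.03 and -0.03 in nicotine mouse 1 and by -0.51 and 0.07 in nicotine mouse 3. Of 3 other reticulons, Rtn2 was 9.71 and 10.13 in nicotine mice 1 and 3, against 7.43 to 8.01, Rtn4 was 8.83 and 8.87, against 8.30 to 8.58, and Rtn3 was 11.69 and 12.16, against 11.69 to 12.01. The other ubiquitin C-terminal hydrolases stayed closer to the water range: Uchl3 was 10.03 and 10.41, against 9.90 to 10.20, Uchl5 was 9.33 and 9.19, against 9.60 to 9.77, and Bap1 was 10.24 and 10.62, against 9.74 to 9.88.

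Genes with the most similar pattern to a member were found by the root mean square difference, over the 10 arrays, between deviations from the water mean, for the 8 members whose range was above 2 log2 units. The range passed that size in 12.7% of all genes. Nefl was nearest to Stmn3 (0.23 log2 units), Snap25 (0.29), a protein of synaptic vesicle fusion, and Gdap1 (0.36). Nefm was nearest to Prkar1b (0.11), Nrcam (0.12), a neuronal adhesion molecule, and Frmd4a (0.12), and Ina to Minar2 (0.088), Trank1 (0.13) and Phyhipl (0.14). Rtn1 was nearest to Mest (0.22), the granin Scg3 (0.26) and the neuronal RNA-binding protein Elavl4 (0.28), and Uchl1 to Rab3c (0.25), Peg3 (0.27) and Tubb4a (0.27). Tubb3 was nearest to Cenpn (0.11), a centromere protein, Pcbp4 (0.12) and Mapk8ip2 (0.12). Gap43 was nearest to Sema3a (0.17), a secreted guidance protein, Chrna4 (0.18), a nicotinic receptor subunit, and Rit2 (0.18), and Stmn2 to Rit2 (0.43), Gap43 (0.46) and Ndn (0.46). These are descriptions over 10 arrays, with no test. The range of Ina was 4.68 over the 10 mice and 0.47 without nicotine mice 1 and 3, and that of Stmn2 was 4.26 and 1.83. In each of the 8 members it was wider with these 2 mice, so the likeness rests largely on them.

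Among the other 8 mice some members varied together in another way, seen after the values were known. In 4 members, Nefl, Stmn2, Uchl1 and Rtn1, nicotine mouse 2, water mouse 3 and water mouse 5 were the 3 lowest of the 8, as in 2.07% of all genes tested. Stmn2, for example, was 8.03 in nicotine mouse 2 and 7.73 and 6.89 in water mice 3 and 5, against 8.26 to 8.72 in the other 5. Water mouse 5 was the lowest of the 8 in 8 of the 10 members, Nefh and Ina being the exceptions, and in 14.6% of all genes. The range over these 8 mice was 1.83 log2 units in Stmn2, 1.45 in Uchl1, 1.34 in Nefl and 1.10 in Rtn1, and 0.40 to 0.57 in the other 6 members.

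Of 12 tested autonomic neuron markers, 5 had the same 3 lowest mice, Th, Dbh, Slc18a3, Npy and Vip, which encode the enzymes, a transporter and peptides of sympathetic and parasympathetic transmission. Npy was 8.69, 9.69 and 9.51 in nicotine mice 2, 4 and 5, against 9.82, 9.59, 8.77, 9.52 and 8.31 in water mice 1 to 5. Of 8 tested markers of Schwann cells and glia, 2 did so, Pmp22 and Fabp7. Fabp7 was 7.89, 9.32 and 9.16 in the same nicotine mice, against 9.10, 9.43, 8.30, 8.67 and 6.74 in water mice, and Prph and Stmn3 had these 3 mice lowest too. Of 13 neuroendocrine markers 6 did, among them Chgb, Syp and Eno2. In nicotine mouse 3, where 9 of the 10 members were highest, Npy was 7.99 and Fabp7 6.69, both below every water mouse. Other autonomic markers went otherwise in that mouse. Th was 7.08 and Dbh 7.09, inside the water ranges of 7.01 to 7.61 and 6.64 to 7.36. Phox2a at 7.34 and Ret at 8.79 were above every water mouse, the highest of which read 6.83 and 7.67. Ret was also high in nicotine mouse 1, at 11.40. Over 14 autonomic markers, Ret among them, the mean was 7.15 in nicotine mouse 3 and 7.79 in nicotine mouse 1. In water mice that mean was 7.29 to 7.72. Over 9 glial markers it was 7.54 in nicotine mouse 3 and 8.08 in nicotine mouse 1, against 7.97 to 8.44, with the defining Schwann cell gene Sox10 at 7.18 and 7.42, against 7.32 to 7.55. Sensory neuron markers averaged 7.04 and 6.98, against 6.79 to 6.96. Among them, in nicotine mouse 1, Avil was 8.59, against 7.17 to 7.49 in water mice, and Isl1 was 7.50, against 8.23 to 8.56. Seminal vesicle genes, a tissue attached to the prostate, averaged 7.98, 8.58 and 12.54 in nicotine mice 2, 4 and 5, against 7.25, 7.29, 12.08, 13.16 and 12.96 in water mice 1 to 5, which is another order, and their part was not tested.

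**Figure D5:**
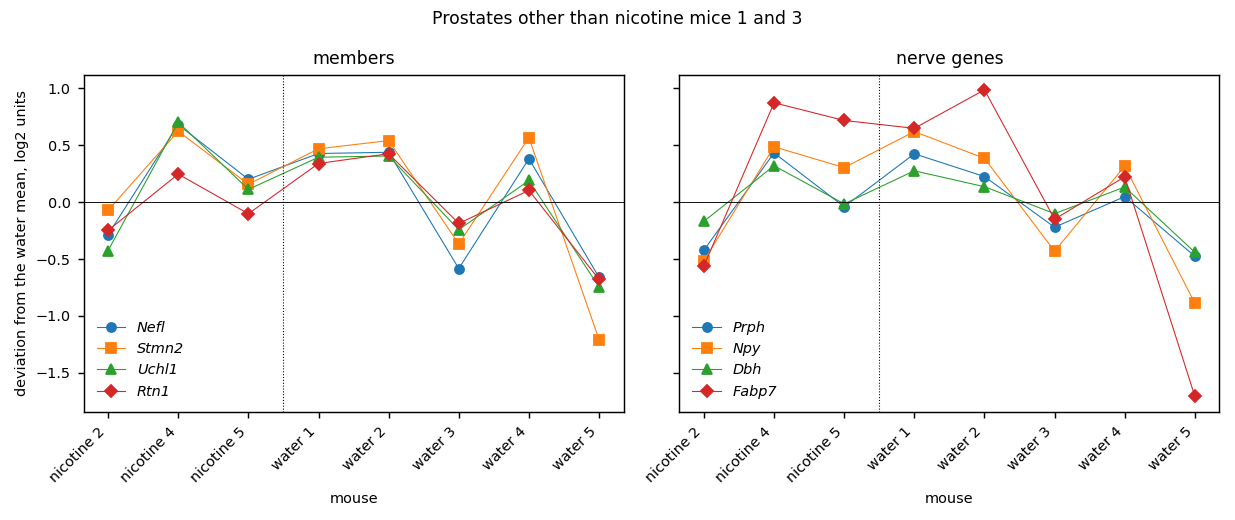
Deviation from the water mean, in log2 units (y axis), in the 8 prostates other than nicotine mice 1 and 3, for 4 members (left) and 4 nerve genes (right); lines join the values of 1 gene and do not imply an order of mice. Nicotine mouse 2, water mouse 3 and water mouse 5 are the 3 lowest for each of the 8 genes. These genes were chosen after their values were seen and because they share this order, so the figure is no separate evidence of it.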

How the data were processed

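RNA of 10 prostates was amplified, labelled with biotin and hybridised to Affymetrix whole-transcript arrays, per the labels' protocols. The authors deposited 1 table of log2 values, 35556 probe sets by 10 arrays, from 3.59 to 14.12 with array medians of 7.50 to 7.57. That range is why they were taken as log2. Background correction and normalization were not given in the sources used here. Scan dates were not used here, so batches were not checked.

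Gene names came from GEO's annotation of the platform, possibly outdated, with 1 symbol for 21789 probe sets, several for 1621 and none for 12146. By Entrez identifier, 21698 of the single-symbol probe sets were found in RefSeq (GRCm38.p6). The probe set with the highest mean was kept per gene, and the 25% of genes with the lowest mean were left out. Groups were compared with limma 3.58.1 (lmFit and eBayes, two-sided) in R 4.3.3, with Benjamini-Hochberg adjustment over 14953 genes. The steps were tested on simulated data with the same spread in both groups and no outlying arrays. That test does not cover the unequal spread of the groups seen here. Exact two-sided permutation tests, over all arrangements of the mice (56 without nicotine mice 1 and 3, smallest possible p 0.0179), were run for the 10 members in Python 3.11.15 and are unadjusted. Protein sequences were not used.

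Members and lists were chosen with earlier results of these data known. Named genes were the members, Rest and Srrm4, and the 3 nearest in pattern to a member. From each related list they were the 3 with the widest range and the 2 with the smallest p. From each marker list they were the first 4 measured, of which not all are printed. Genes outside this rule, among them Npy, Fabp7, Slc18a3, Vip, Syp and Eno2, were named after their values were seen. List genes without a probe set of a single symbol were not analysed here. Deviations of same-numbered mice from their group means correlated at -0.13 to 0.16, and no label ties a number to a litter or day. Nicotine mice 1 and 3 weigh heavily in the nicotine means, so this check cannot decide whether the mice were paired. The labels number separate mice, without giving litters. Alternatives were the filter, the probe set rule, quantile normalization, median centring, array weights, a trended and robust variance prior, blocking on mouse number and leaving out each mouse; leaving out nicotine mice 1 and 3 was chosen after seeing the data.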

Additional observations from a re-analysis of the deposited data

Results flagged for a closer look

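Within each group of 5 mice, single mice that stood apart from the others by Dixon's ratio (critical value 0.71) were sought in 115 named or list genes and 21 list means, and chance alone gives about 1 such group in 20. There were 34 among 272 groups, 21 of them in nicotine mouse 3 and 7 in nicotine mouse 1. Many of these genes were named for a wide range, for a pattern near that of a member or after their values were seen, so the count is not to be set against that chance rate. Of the 10 members 1 was among them, Gap43 at 10.56 in nicotine mouse 3.

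Nicotine mouse 3 stood above the other nicotine mice in Stmn4 (9.64), Dcx (9.49), Dclk1 (9.63), Mapt (10.61), Frmd4a (10.90), Rit2 (9.22), Ndn (11.24), Sema3a (9.23), Chrna4 (10.36) and the granin gene Scg2 (8.55). It stood below them in Des (7.18), Tuba4a (8.10), the glial gene Mbp (8.48), the prostate genes Msmb (6.21) and Fkbp5 (9.24), the smooth muscle genes Acta2 (10.02) and Myh11 (7.75), and the fibroblast gene Dcn (9.18). The means of the other intermediate filaments (8.37) and of the luminal markers (7.35) were also low in this mouse.

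Nicotine mouse 1 stood apart in the skeletal muscle genes Ckm (11.23), Myl1 (11.01) and Neb (9.08) and their list mean (10.28), and in Avil (8.59), Pcsk1 (11.11) and Foxa2 (9.69). Nicotine mouse 5 stood apart in the seminal vesicle gene Svs3a (11.55). Among water mice, water mouse 1 did so in Klc1 (9.88), Cnp (9.34) and the fibroblast mean (10.24), water mouse 2 in Elavl4 (6.70), and water mouse 5 in Top2a (9.61).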

How the results depend on the processing

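Of 187 values of the member differences under other settings, 183 kept their direction and did not pass, and 4 reversed: Nefm with array weights (-0.0036), Stmn2 without nicotine mouse 3 (-0.0097), and Nefm (-0.033) and Rtn1 (-0.035) without nicotine mice 1 and 3. The number of members called was 0 in each setting, and the number of genes called was 0 in 17 of 18 planned settings and without nicotine mice 1 and 3 (1514 genes in the fit as reported and 2198 without these mice had an unadjusted p under 0.05), and 1096 with array weights (425 higher, 671 lower), which gave nicotine mice 3 and 1 weights of 0.0321 and 0.113; the cause was not tested. With the mouse number as a replicate block, 0 genes passed, the smallest adjusted p of a member by limma was 0.506, with 1005 genes under 0.05 before adjustment; it changed no call. Leaving out each mouse in turn, the lowest and highest difference was 0.59 and 1.63 for Nefl, 0.20 and 0.98 for Nefm, 0.19 and 0.64 for Nefh, 0.84 and 1.94 for Ina, 0.51 and 1.10 for Tubb3, 0.23 and 0.69 for Map2, -0.0097 and 0.94 for Stmn2, 0.17 and 0.97 for Gap43, 0.80 and 1.70 for Uchl1, and 0.77 and 1.95 for Rtn1. The lowest came without nicotine mouse 3 for all but Nefh (without nicotine mouse 1). With the lowest 50% of genes left out, 7 members had a value; Nefm, Ina and Tubb3 were below that level. Without nicotine mice 1 and 3 the comparison was of 3 against 5 mice. The difference was then 0.31 in Gap43 and 0.21 in Tubb3, against SDs in water mice of 0.20 and 0.15. In each other member it was smaller in size than the SD in water mice.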

Other observations

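Some genes outside the members differed widely between nicotine mice 1 and 3, and were named after their values were seen. The receptor tyrosine kinase gene Ret was 11.40 in nicotine mouse 1 and 8.79 in nicotine mouse 3, against 7.14 to 7.67 in water mice. The prohormone convertase gene Pcsk1 was 11.11 and 6.20 in these mice, against 6.07 to 6.64, and the transcription factor gene Foxa2, a neuroendocrine marker in TRAMP tumours, was 9.69 and 7.54, against 7.39 to 7.63. Mapt, which encodes tau of axonal microtubules, was 7.76 in nicotine mouse 1 and 10.61 in nicotine mouse 3, against 7.10 to 7.53. These are single prostates, with no test.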
